A study of Homo sapiens with 10 samples.

Results

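K562 libraries of gamma-H2AX taken 1 h after irradiation were compared with libraries of untreated H2AX from the same line. The 4 libraries, 2 in each group, were chosen by their titles from the 10 libraries of the series. K562 cells, labelled as AML erythroleukemic cells, grow in suspension and carry the BCR-ABL1 fusion of chromosomes 9 and 22. The irradiated cells received 6 Gy of gamma radiation from a cobalt source and were left to recover for 1 h, and their chromatin was profiled with a mouse monoclonal antibody, clone JBW301. The control cells were untreated. Their libraries are titled H2AX, but the antibody field names a rabbit polyclonal antibody to histone H4, so which histone they map is not settled by the labels. Radiation and antibody differ together between the groups and cannot be told apart. Nothing in the labels says that replicates of a group came from separate cultures. The p-values therefore rest on the spread among these 4 libraries alone, and that spread may be technical.

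H2AX is a histone variant scattered through the nucleosomes of the genome. When DNA breaks on both strands, the kinases ATM, DNA-PK and ATR phosphorylate its tail, and the phosphorylated form, gamma-H2AX, spreads along the chromatin on either side of the break and recruits the repair scaffold MDC1. In CUT&RUN an antibody tethers a nuclease to its target in permeabilised nuclei, and the DNA released beneath it is sequenced. A second mark enters below as a further readout: H3K27me3, the histone methylation deposited by Polycomb complexes over silenced developmental genes, from a single library of irradiated K562 at 1 h.

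The tracks gave a mean read depth per base of 1.44 and 1.78 in the 1 h replicates and of 0.672 and 0.671 in the H2AX replicates, over 2798557 bins of 1 kb outside chromosome Y. Levels below are depths divided by the mean of the same library, so a level of 1 is that library's average and a rise in one place requires a fall in another. They carry no information on the total amount of the mark. In bins of low depth, 61.5% and 61.6% of values in the 1 h replicates fell on steps of 60 bp, and 59.3% and 59.0% in the H2AX replicates on steps of 41 bp. These steps were taken as read lengths, so read length and group coincide, and their part in the results was not tested. The K562 label was checked on copy number: of 811 windows of 10 kb in which H2AX was at least 3 times its mean, 75 lay on chromosome 9, 310 on chromosome 13 and 396 on chromosome 22, and the fused chromosomes are among these.

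At the scale of 10 kb, irradiated K562 chromatin was divided into stretches that held more gamma-H2AX than the untreated background and stretches that held less. In limma's test on the 4 libraries, 143027 of 274461 windows (52.1%) passed a Benjamini-Hochberg adjusted p under 0.05. Of these, 49028 (17.9% of those tested) were higher at 1 h and 93999 (34.2%) were lower. The higher windows had median levels of 2.05 and 2.25 in the 1 h replicates and of 1.20 and 1.16 in the H2AX replicates, and a median log2 fold change of 0.80. The lower windows had median levels of 0.531 and 0.364 at 1 h and of 1.07 and 1.06 in H2AX, and a median log2 fold change of -1.16. Relative to the library means, losses were thus deeper than gains: 64192 windows (23.4%) were lower by 2-fold or more, whereas 12256 (4.47%) were higher by that much. This balance depends on the scaling. Median levels over all tested windows were 0.784 and 0.752 at 1 h and 0.936 and 0.951 in H2AX. Under median-of-ratios scaling 59740 windows were higher and 88285 lower.

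Untreated H2AX was close to its average in both classes, so neither class was a set of windows with little chromatin signal. The higher windows held 37.5% and 42.1% of the 1 h signal in the 2 replicates, against 21.7% and 21.1% of the H2AX signal. The lower windows held 19.0% and 13.4% of the 1 h signal and 37.8% and 37.1% of the H2AX signal. In 216334 windows (78.8% of those tested) the groups did not overlap, with both 1 h levels above both H2AX levels in 97489 (35.5%) and below them in 118845 (43.3%). Among the windows that passed the test, 142978 had groups that did not overlap. Replicate 2 was the more polarised of the 1 h libraries: its log2 ratio to H2AX replicate 2 had an SD of 0.96 over windows, and that of replicate 1 to H2AX replicate 1 had 0.72. The count of windows that passed depended on which library was left out, in either group, and its range is given below with the alternatives. A fit with 1 library left in a group takes its spread from the other group alone. Those spreads were unlike: the SD of the log2 ratio between replicates was 0.46 at 1 h and 0.25 in H2AX.

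The leading windows, plotted by library, were chosen among those whose groups did not overlap, so that separation is part of the choice. On chromosome 17 the window at 38500001 to 38510000 had levels of 3.75 and 5.38 at 1 h and of 0.976 and 0.667 in H2AX. The log2 difference was 2.40 with an SE of 0.21, the highest among the named windows, at a limma adjusted p of 3.42e-05. A pair of further windows on the same chromosome followed. At 27440001 to 27450000 the levels were 3.10 and 5.21 at 1 h and 0.887 and 0.691 in H2AX, and at 37040001 to 37050000 they were 2.69 and 4.61 against 0.796 and 0.738. In each of these the lower 1 h replicate was still more than 2 times the higher H2AX replicate. On chromosome 14 the window at 105620001 to 105630000 had 2.93 and 3.63 at 1 h and 0.798 and 0.541 in H2AX, a log2 fold change of 2.23 (SE 0.21). The other gains among the leading 10 lay on chromosomes 22 (from 46980001 and 50700001), 20 (61290001), 16 (75270001), X (44920001) and 11 (64600001), with log2 fold changes from 2.04 to 2.10. The window on chromosome X showed the smallest difference between 1 h replicates, 1.88 and 1.79, over a low background of 0.437 and 0.379. H3K27me3 was at or below 0.122 of its library mean in all 10.

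**Figure D1:**
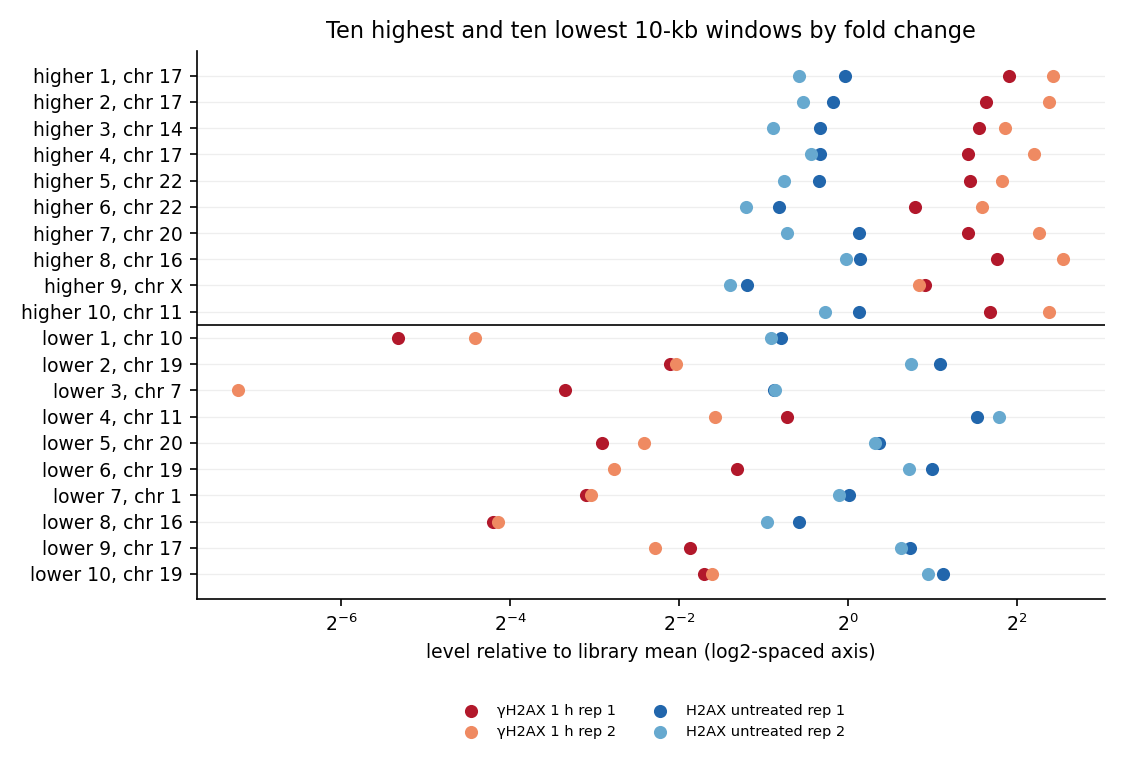
Level relative to the library mean (x axis, log2 spacing) in the 10 windows of 10 kb with the highest and the 10 with the lowest log2 fold change among those that passed with groups that did not overlap, at most 1 per Mb in each direction, 1 point per library, named by rank and chromosome. In the upper 10 both 1 h points lie to the right of both H2AX points, and in the lower 10 both lie to the left, as the choice requires; the lowest point is 1 h replicate 2 in the chromosome 7 window, at 0.00673.

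The strongest losses fell into 2 kinds. In the first, untreated H2AX was above its average and the 1 h level was low. On chromosome 19 the window at 7160001 to 7170000 had 0.232 and 0.245 at 1 h and 2.13 and 1.68 in H2AX, which is a log2 difference of -2.75 with an SE of 0.26, at a limma adjusted p of 3.42e-05. On chromosome 11 the window at 122870001 to 122880000 stood at 0.608 and 0.337 after irradiation, with H2AX at 2.89 and 3.44, the highest H2AX level of the 20. Windows on chromosomes 20 (from 2250001), 19 (9140001 and 13620001) and 17 (59340001) were of the same kind, with log2 fold changes from -2.66 to -2.51. H3K27me3 in these 6 windows was between 3.25 and 5.39 times its mean. In the second kind H2AX was near or below its average and H3K27me3 was below its mean. On chromosome 10 the window at 47710001 to 47720000 had 0.0250 and 0.0468 at 1 h and 0.579 and 0.531 in H2AX, and the lowest log2 fold change of the 20, -2.83 (SE 0.32). The windows on chromosomes 7 (from 74360001), 1 (234920001) and 16 (14910001) had log2 fold changes of -2.70, -2.59 and -2.59, with H3K27me3 at 0.341, 0.647 and 0.926. At such low 1 h levels the fold depends on the pseudocount of 0.05 added before taking logarithms.

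Called gains formed shorter runs than called losses. Neighbouring windows with the same call were joined into runs. A window without a call ends a run, so run length depends on how many windows passed. Both 1 h levels lay above both H2AX levels in 97489 windows, and 49028 were called higher. They lay below in 118845, and 93999 were called lower. The part of the call rate in run length was not tested. Higher windows formed 16618 runs with a median length of 10 kb and a longest of 750 kb, and 8878 of those runs were single windows. Lower windows formed 15234 runs with a median of 20 kb and a longest of 1830 kb. Of the lower windows, 63.8% lay in runs of 100 kb or more, compared with 30.0% of the higher windows. Runs of 500 kb or more numbered 156 for losses and 1 for gains. The longest loss, on chromosome 16 at 6070001 to 7900000, had mean levels of 0.448 and 0.284 at 1 h against 0.985 and 0.982 in H2AX. The next, on chromosome 7 at 27870001 to 29640000, had 0.513 and 0.334 against 1.22 and 1.19. H3K27me3 averaged 1.59 and 2.0 times its mean in these stretches. The longest gain, on chromosome 4 at 151180001 to 151930000, had 2.38 and 2.49 at 1 h and 1.20 and 1.17 in H2AX, with H3K27me3 at 0.0675. Gains and losses were usually set apart by windows without a call: of 33236 run ends of gains, 2009 touched a loss directly.

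Averaging over longer stretches narrowed the contrast. The SD of the log2 ratio of 1 h to H2AX, each averaged over its 2 libraries, was 1.10 over 1-kb bins, 0.81 over 10 kb, 0.69 over 100 kb and 0.42 over 1000 kb. The SD of the log2 ratio between the 1 h replicates was 1.11, 0.46, 0.32 and 0.21 at these scales, and that between the H2AX replicates was 0.79, 0.25, 0.11 and 0.08. Between single libraries of the 2 groups with the same replicate number the SD at 1 kb was 1.24 and 1.34, wider than between replicates of either group. With each 1 h replicate set against a different H2AX replicate, the 2 log2 ratios had a Spearman's rho of 0.483 over 2702279 bins of 1 kb and of 0.854 over 274461 windows of 10 kb. The 10-kb ratio of replicate 1 also resembled that of replicate 2 in nearby windows. Pearson's r over windows was 0.78 at a distance of 10 kb, 0.42 at 100 kb and 0.13 at 1000 kb. These correlations are over windows, which are not independent, and the libraries share copy number and base composition.

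At 1 kb a smaller share passed the test, and the folds of those that passed were larger. The 1 h replicates differed more at this scale, with an SD of 1.11 against 0.46 at 10 kb, so a larger fold was needed to pass. The 5th percentile of the log2 fold change was 1.20 in higher bins and 0.51 in higher windows. The levels of called bins below are in part set by this. Of 2702279 bins, 149745 (5.54%) passed in limma's test, 77435 higher (2.87%) and 72310 lower (2.68%). The higher bins had median levels of 3.42 and 3.81 at 1 h and 1.20 and 1.13 in H2AX. The lower bins had 0.308 and 0.269 at 1 h and 1.74 and 1.7 in H2AX, with H3K27me3 at 3.33 times its mean. Under median-of-ratios scaling the median log2 fold change of all bins moved from -0.20 to -0.04 and the share of calls that were higher moved from 51.7% to 68.8%. No bin passed without 1 h replicate 1 (777193 at an unadjusted p under 0.05) or without 1 h replicate 2 (595801). Without H2AX replicate 1 or 2, 51080 and 36715 passed, and limma without the mean-variance trend called 0 (619677 at an unadjusted p under 0.05).

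Single bins showed the extremes. On chromosome 17 the bin at 27445001 to 27446000, inside the second-ranked 10-kb gain, had 4.92 and 6.98 at 1 h and 0.408 and 0.122 in H2AX. On chromosome X the bin at 44892001 to 44893000 had 2.88 and 2.30 at 1 h and was listed at 0.244 and 0 in H2AX. On chromosome 17 the bin at 1547001 to 1548000 had 2.36 and 2.15 against 0 and 0.183. Bins on chromosomes 9 (from 30903001) and 3 (from 84942001) had 1 h levels of 1.53 and 0.890, and of 0.757 and 1.15, and were listed at 0 in both H2AX replicates. Among the leading losses, bins on chromosomes 12 (from 54100001), 15 (76346001), 19 (13451001) and 18 (10766001) were listed at 0 in both 1 h replicates. H2AX there was 1.85 and 2.92, 1.69 and 2.48, 2.12 and 1.93, and 1.81 and 1.78. The bin on chromosome 19 from 17037001 had 0 and 0.00785 at 1 h and 2.38 and 1.72 in H2AX. H3K27me3 in these 5 losses lay between 2.99 and 8.05 times its mean, and in the 5 gains between 0 and 0.804. Bins listed at 0 in one group passed the filter on the mean level through the other group, so their contrast is in part set by that filter, and no fold is given for them. With a pseudocount of 0.01 the gains on chromosomes 9 and 3 lost their call, at limma adjusted p of 0.167 and 0.229.

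At 10 kb, differences in both directions were more frequent where untreated H2AX was high. Windows of 10 kb were sorted into deciles (10 equal classes) by one H2AX replicate and the 1 h level was divided by the other, so that noise in the sorting library did not enter the ratio. The calls counted below come from the test on all 4 libraries, which includes the sorting library. Sorted by H2AX replicate 1, the lowest decile (levels of 0.098 to 0.538) had 8.44% of windows higher and 8.75% lower. The highest decile (levels of 1.58 to 14.5) had 38.8% higher and 37.1% lower, against 17.9% and 34.2% of all windows. The share of losses was greatest in the eighth decile, at 49.9%, and the share of gains grew from the third decile to the last. Windows past 2-fold in the same direction in both 1 h replicates made up 4.16% of the lowest decile and 24.9% of the highest. The SD of the log2 ratio between the 1 h replicates was 0.45 in the lowest decile and 0.41 in the highest. Sorting by H2AX replicate 2 gave 6.65% and 23.3% past 2-fold. At 1 kb the rise in gains did not hold under both sortings: bins up 2-fold in both replicates made up 9.26% of the lowest and 11% of the highest decile by H2AX replicate 1, but 10.4% and 8.80% by replicate 2. Bins down 2-fold in both went from 9.57% to 18.2% and from 10.7% to 18.8%. The pseudocount narrows folds most where levels are low.

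The median ratio followed a trough rather than a slope. Sorted by H2AX replicate 1, the median log2 ratio in 1 h replicates 1 and 2 was 0.06 and 0.23 in the lowest decile, -0.36 and -0.67 in the seventh, and 0.14 and 0.13 in the highest. Sorted by H2AX replicate 2, it was 0.11 and 0.28 in the lowest, -0.27 and -0.55 in the seventh, and 0.06 and 0.03 in the highest. The difference between the highest and the lowest decile, averaged over both sortings, was 0.01 in 1 h replicate 1 and -0.18 in replicate 2, a mean of -0.08 ± 0.13 (SD, n = 2). The ends of the range therefore did not differ by more than the replicates did, although the middle lay below both.

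**Figure D2:**
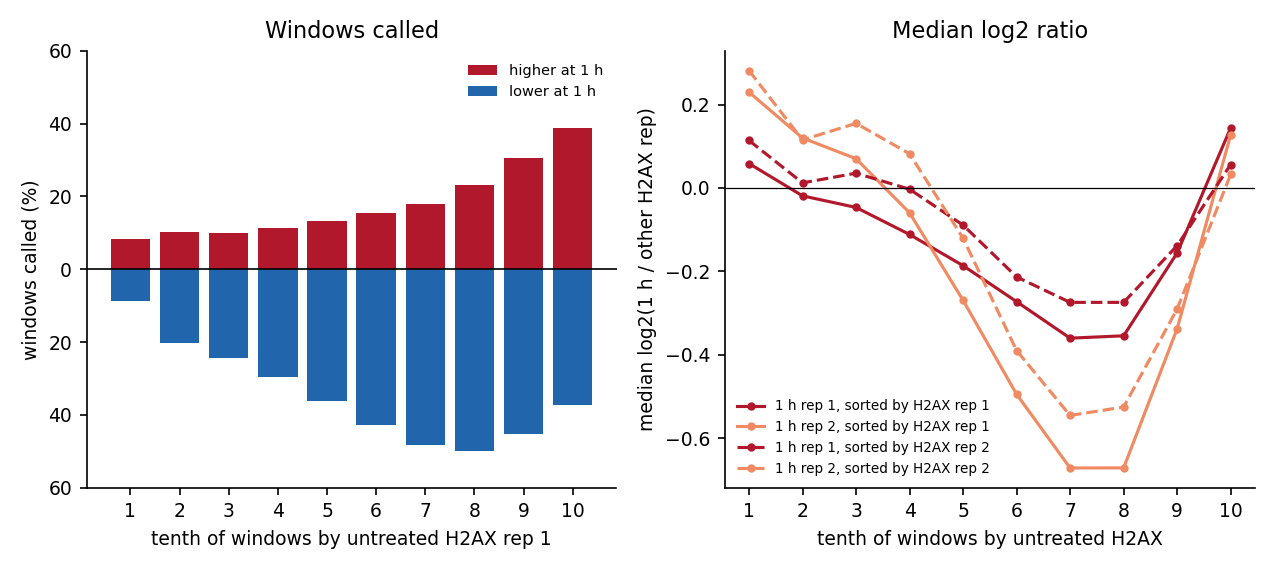
Left, percentage of 10-kb windows called higher (red, up) or lower (blue, down) at 1 h in each decile by untreated H2AX replicate 1; right, median log2 ratio of each 1 h replicate to the H2AX replicate not used for sorting. Both kinds of call were rarest in the lowest decile (8.44% and 8.75%), and all 4 lines on the right reach their trough in the seventh or eighth decile.

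Windows poor and rich in H3K27me3 had median ratios on opposite sides of 0. Windows between 0.25 of its mean and its mean were left out of this split. In windows with H3K27me3 under 0.25 of its mean, the median log2 ratio was 0.15 and 0.32 in the lowest decile by H2AX replicate 1 and 0.67 and 0.84 in the highest, and the share called higher was 10.2% and 73.1%. Within this class the median ratio was higher in the top quintile by H2AX than in the bottom quintile on 23 of 23 chromosomes. These quintiles were cut within the class on each chromosome, unlike the deciles. The chromosomes come from the same 4 libraries and are not replicates, so the count is a description. In windows with H3K27me3 over its mean the median log2 ratio was -0.82 and -1.33 in the lowest decile and -0.99 and -1.49 in the highest, so that it lay below 0 at every H2AX level. There 69.1% of windows in the lowest decile and 92.4% in the highest were called lower. Over all H2AX levels, the decile of windows with the most H3K27me3 had 97.1% lower and 0.0692% higher, and the decile with the least had 0.176% lower and 18.6% higher. Of all windows 34.2% were lower and 17.9% higher, so gains in the decile with the least H3K27me3 were near the share of all windows. Counted from the least H3K27me3, the share of gains was greatest in the fourth decile, at 44.3%. H3K27me3 comes from a single library of irradiated cells that also has 60-bp steps, and both limits on its level were chosen after its values were seen.

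**Figure D3:**
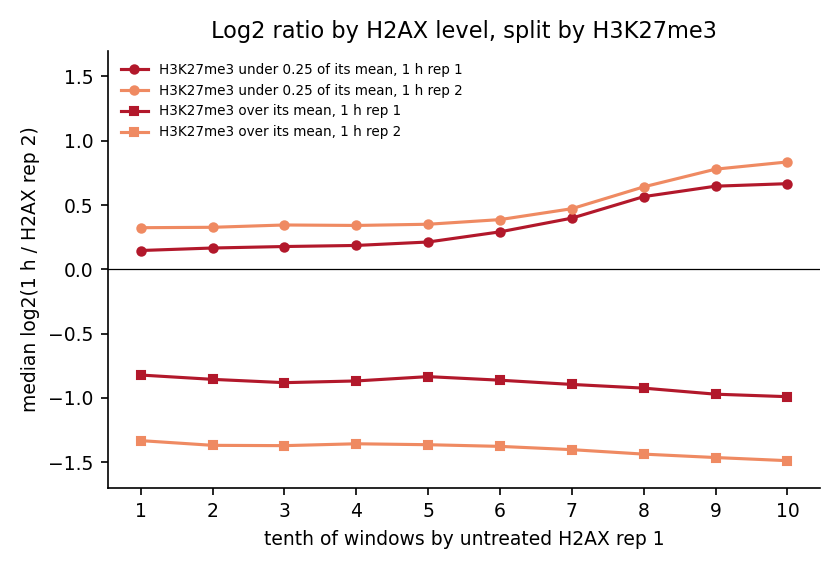
Median log2 ratio of 1 h gamma-H2AX to H2AX replicate 2 (y axis) by decile of untreated H2AX replicate 1 (x axis), for windows with H3K27me3 under 0.25 of its mean (circles) and over its mean (squares), 1 line per 1 h replicate. The circles climb from 0.15 and 0.32 to 0.67 and 0.84, while the squares stay between -0.82 and -1.49.

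The deposited broad peaks marked a part of the gains. The peak lists, called by the authors for each 1 h library, held 41947 and 46072 peaks, with median widths of 912 and 1088 bp. Parts covered by both lists made 26075 shared regions with a median width of 713 bp, over 27.3 Mb. Of the peaks, 59.5% of the first list and 49.3% of the second took part in them. Median levels in the shared regions were 3.65 and 3.99 at 1 h, 1.66 and 1.57 in H2AX and 0.105 for H3K27me3. H2AX was above its own mean in 91.9% and 89.2% of these regions in its 2 replicates, whereas its medians over all tested 1-kb bins were 0.927 and 0.944. The lists were called on the 1 h libraries, and whether H2AX served as the caller's control is not stated. All the libraries share copy number and base composition. H3K27me3 was above its mean in 97 of the regions (0.372%), against 27.2% of all tested 1-kb bins.

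Against bins 10 to 50 kb away from any shared region, the level inside was 2.91-fold and 3.32-fold at 1 h, a mean of 3.11 ± 0.293 (SD, n = 2). In untreated H2AX it was 1.43-fold and 1.38-fold, a mean of 1.40 ± 0.0299 (SD, n = 2). Both 1 h values lay above both H2AX values. The exact permutation test over the 4 libraries gave p = 0.333, two-sided, the smallest that 2 against 2 can give. The 1 h libraries chose the peaks, so their ratio is a description. The log2 difference between the groups, 1.14, was 0.54 against a flank of 2 to 10 kb and 0.53 in the 314 regions with q under 0.05 in both lists. The flank of those 314 regions was counted from them alone, so it could hold other shared regions, and the values 0.53 and 1.14 rest on unlike flanks. In the authors' deposited lists 8.10% and 14.7% of peaks had q under 0.05. Peaks found in a single list allow a measure in the replicate that did not choose them. At the 17005 peaks found in replicate 1 alone, the level in replicate 2 was 2.37, which was 2.63-fold its flank, and H2AX was 1.22-fold and 1.21-fold its flank. At the 23361 peaks found in replicate 2 alone, the level in replicate 1 was 2.47, or 2.45-fold its flank, with H2AX at 1.26-fold and 1.21-fold. This flank also kept clear of all peaks of the measured replicate, which thus had a part in choosing it. Its folds are therefore not comparable with the 2.91-fold and 3.32-fold of the shared regions. Without a flank, the median log2 ratio to the mean of both H2AX libraries was 0.74 for replicate 2 and 0.75 for replicate 1. The replicate that had not called the peak was thus above H2AX there as well.

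Around the centres of the shared regions the 1 h level had a narrow summit on a wide shoulder. In 1 h replicate 1 the mean level was 3.99 at the centre, 2.87 at 2 kb, 2.65 at 10 kb and 2.08 at 50 kb. In replicate 2 it was 4.37, 3.38, 3.02 and 2.26 at the same distances. Untreated H2AX was nearly level: replicate 1 had 1.79 at the centre, 1.64 at 2 kb and 1.54 at 50 kb, and replicate 2 had 1.69, 1.56 and 1.47. The ratio of 1 h to H2AX was 2.22 and 2.59 at the centre and still 1.35 and 1.53 at 50 kb. Other shared regions contributed to the shoulder, since 19.3% of bins at 10 kb and 11.9% at 50 kb lay in one, against 1.91% of all bins. H3K27me3 ran the other way, from 0.122 at the centre to 0.893 at 50 kb.

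**Figure D4:**
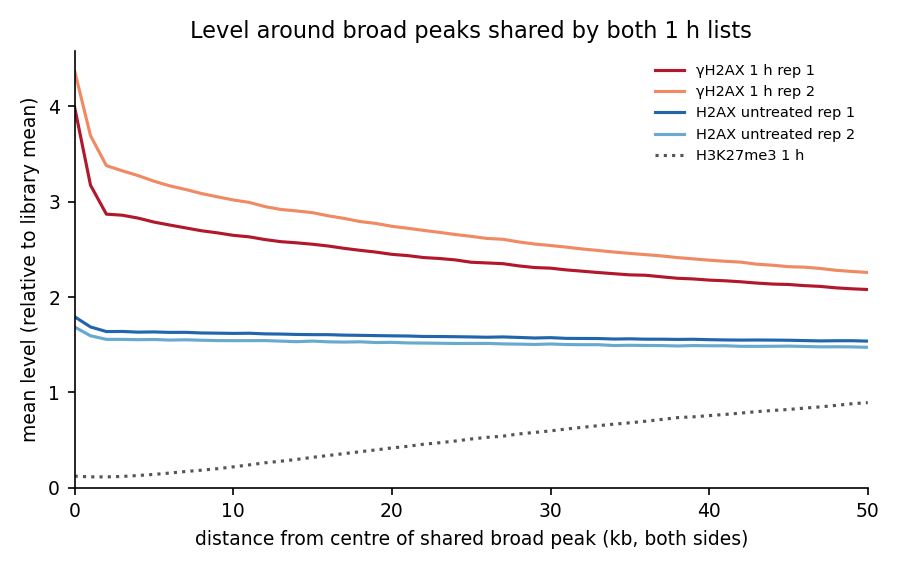
Mean level relative to the library mean (y axis) by distance from the centre of the 26075 shared broad-peak regions, both sides joined (x axis, kb), for each of the 4 libraries and for H3K27me3 (dotted). The 1 h lines drop steeply over the first 2 kb, to 2.87 and 3.38, and then decline slowly to 2.08 and 2.26 at 50 kb, while the H2AX lines stay between 1.47 and 1.79.

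Levels were higher in wider shared regions, in both groups. The 16594 regions under 1 kb had mean levels of 3.63 and 3.98 at 1 h and of 1.7 and 1.6 in H2AX. The 317 regions of 5 kb or more had 6.57 and 7.82 at 1 h and 3.46 and 3.15 in H2AX. The ratio of 1 h to H2AX moved less. It was 2.14 and 2.48 under 1 kb, 2.15 and 2.57 from 1 to 2 kb, 2.17 and 2.65 from 2 to 5 kb, and 1.90 and 2.49 in the widest class. Of the 5 widest shared regions, 4 lay on chromosomes 9 and 22, where H2AX itself was 7.29 to 13.1 times its mean. The widest of all, on chromosome 9 at 133744625 to 133763351, had 19.5 and 25.2 at 1 h and 11.7 and 10.8 in H2AX. The fifth, on chromosome 1 at 165849318 to 165864351, had 5.19 and 5.10 at 1 h and 2.17 and 1.80 in H2AX.

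The 5 regions with the highest fold in the authors' deposited lists were not those with the highest levels. On chromosome 3 the region at 101324013 to 101324271 had caller's folds of 3.12 and 3.40 in the authors' deposited lists. The bins it touched had 1.39 and 2.50 at 1 h and 0.244 and 1.04 in H2AX. The region on chromosome 2 at 88862114 to 88863299 had folds of 2.95 and 3.09 in the authors' deposited lists, with 3.26 and 3.66 at 1 h and 1.38 and 1.68 in H2AX. The other 3, on chromosomes 11 (from 111816818), 15 (101132547) and 12 (48466331), were 118 to 358 bp wide and had 1 h levels between 2.35 and 3.06. Within the shared regions the ratio declined as H2AX rose. Sorted by H2AX replicate 1, the lowest quintile of regions had a median log2 ratio to replicate 2 of 1.39 and 1.5, and the highest quintile had 1.03 and 1.17. The 1 h libraries chose these regions, so this order is a description.

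Gain gave way to loss with distance from a peak, and loss to little difference beyond 500 kb. Windows touched by a shared region had median levels of 2.71 and 3.08 at 1 h and 1.52 and 1.45 in H2AX, and 94.1% of them were called higher, against 17.9% of all windows. This share follows from the choice of peaks. Conversely, a shared region touched 36.4% of the higher windows, against 6.90% of all windows. Of the higher windows 32.5% lay over 50 kb from any shared region, against 77.4% of all windows. Windows 1 to 10 kb away had 58.4% higher and 7.32% lower, and those 21 to 50 kb away had 19.7% higher and 41.5% lower. The share of losses was greatest between 100 and 200 kb away, at 63.6%, with median levels of 0.666 and 0.475 at 1 h against 1.08 and 1.07 in H2AX. Beyond 500 kb the median levels were 0.706 and 0.758 at 1 h and 0.70 and 0.742 in H2AX, 8.43% of windows were higher and 20.7% lower. The median log2 fold change was above 0 in touched windows and below 0 at 51 to 200 kb on 23 of 23 chromosomes each. In touched windows this too follows from the choice of peaks. All chromosomes come from the same 4 libraries and are not replicates, so both counts are descriptions.

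**Figure D5:**
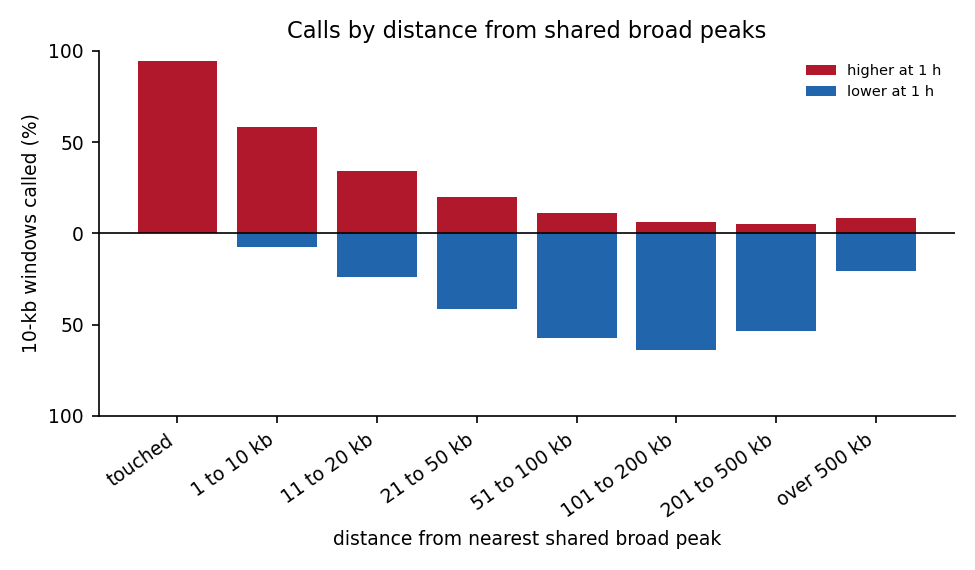
Percentage of 10-kb windows called higher (red, up) or lower (blue, down) at 1 h by distance from the nearest shared broad-peak region. Higher calls fall from 94.1% in touched windows to 4.93% between 200 and 500 kb, and lower calls are most frequent, at 63.6%, between 100 and 200 kb.

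H3K27me3 moved with distance from the peaks. Its median was 0.0985 in touched windows, 1.36 between 100 and 200 kb and 0.0802 beyond 500 kb. In windows with H3K27me3 under 0.25 of its mean, the median log2 fold change was 0.95 where a shared region touched them, 0.50 at 11 to 50 kb, 0.31 at 51 to 200 kb and 0.29 beyond 500 kb, and at most 3.24% were lower in any class of distance. In windows with H3K27me3 over its mean it was 0.39 in the 191 touched windows, -0.67 at 1 to 10 kb, -1.09 at 11 to 50 kb and between -1.23 and -1.18 farther away. Among windows rich in H3K27me3, loss thus did not end with distance: 88.2% were lower beyond 500 kb. Whether H3K27me3 lies behind the loss was not tested.

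Chromosomes differed less than the windows within them. On 23 of 23 chromosomes more windows were lower than higher, but the mean level over a chromosome was higher at 1 h than in H2AX in both replicates on 9 and lower on 10. Chromosome 17 had mean levels of 1.10 and 1.21 at 1 h and 1.06 and 1.01 in H2AX, ratios of 1.03 and 1.19 in replicates 1 and 2, with 28.7% of its windows higher and 40.9% lower. Chromosome 19 had 1.10 and 1.24 at 1 h and 1.35 and 1.28 in H2AX, ratios of 0.808 and 0.971, and 44.6% of its windows lower. These chromosomes lead in the mean of both replicates but not in each: chromosome 4 had a ratio of 1.10 in replicate 1, and chromosome 8 one of 0.907 in replicate 2. Its groups did not overlap. The share of lower windows was greatest on chromosomes 16 (49.0%), 15 (47.4%) and 20 (46.4%) and least on chromosome X, where 23.5% were lower and 9.36% higher. These chromosome values are given without a test.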

How the data were processed

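CUT&RUN tracks of K562 gamma-H2AX at 1 h (n = 2) and untreated H2AX (n = 2) were compared, with H3K27me3 (n = 1) as a further readout. The build hg19 and the tools BWA 0.7.12, SAMtools and MACS2 are named, without roles, per the submitters' processing notes. The deposited signal tracks hold coverage as mean depth per base in 1-kb bins, not scaled to library depth. The deposited peak lists hold 1 list per 1 h library, with a fold ratio and p and q on a −log10 scale for each broad peak, all as the authors' caller wrote them. The caller's control sample is not stated in the labels or lists.

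Each track was divided by its mean without chromosome Y. Bins were averaged into 10-kb windows holding at least 5 bins. Windows and bins with a mean level of at least 0.25 over the 4 libraries were tested on log2(level + 0.05), so fold changes understate the change of low windows. Testing used limma 3.58.1 (R 4.3.3), letting the prior variance follow the mean level, with 2 residual degrees of freedom. Calls required a Benjamini-Hochberg adjusted p under 0.05, and the script was tested on simulated data. Python 3.11.15, numpy 2.4.6, pandas 2.3.3, matplotlib 3.10.9 and bedtools 2.31.1 did the rest; peaks were shared from an overlap of 1 bp.

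Named windows are the 10 at each end, and named bins the 5 at each end, of the log2 fold change among those that passed with groups that did not overlap, at most 1 per Mb in each direction. Named peaks are the 5 widest shared regions and the 5 with the highest caller's fold, taking the lower of the pair. The longest runs and the extreme chromosomes were named after their values were seen. The comparison and its lists were chosen with earlier results of these data known. Genes were not assigned, since no hg19 annotation was used here, and the planned test over genes was not run. Alternatives were the pseudocount, the filter, the scaling, the trend, a replicate block, each library left out, and the peak and flank definitions.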

Additional observations from a re-analysis of the deposited data

How the results depend on the processing

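All 20 named 10-kb windows kept their direction and call under the 10 alternatives run. The number of windows called, 143027, ranged from 67340 to 190500 when each library was left out in turn, with 28854 to 76447 higher and 37290 to 114053 lower; the other 6 alternatives kept it within 1.5 times. The 1-kb counts were less stable. A pseudocount of 0.01 gave 78258 bins (49165 higher, 29093 lower), one of 0.2 gave 275052 (159178 lower), and no filter gave 88189 (51292 higher, 36897 lower). Median-of-ratios scaling gave 119132 higher. Without the mean-variance trend limma called 0 bins, 0 higher and 0 lower, with 619677 at an unadjusted p under 0.05. Leaving out each library gave 0 to 51080 bins, 0 to 49105 higher and 0 to 2054 lower. The 10 named bins kept their direction in all 100 repeats and lost their call in 48.

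With a replicate block limma called 146779 windows and 268405 bins (120081 higher, 148324 lower). The deviations of same-numbered libraries had a correlation of 0.07 over windows and 0.01 over bins, and nothing in the labels ties the numbers, so the libraries share only a number.

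The log2 difference in local level at peaks between 1 h and H2AX was 1.14. With peaks of q under 0.05 in both lists, which left 314 regions, it was 0.53, and with an overlap of 50% of both peaks 0.79. For both of these sets the flank was counted from the set's own regions, so it could hold other shared regions. With a flank of 2 to 10 kb the difference was 0.54. The cause of these moves was not tested. With each library left out the difference was 1.05 to 1.24. The difference between the highest and lowest decile by H2AX moved by less than the SD between replicates in all 7 alternatives, and was -0.18 to 0.01 with each 1 h replicate left out. Where a group kept 1 library, that library was assumed to vary like the other group. At 1 kb the log2 ratio between the 1 h replicates had an SD of 1.11, against 1.24 and 1.34 between single libraries of the 2 groups.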

Other observations

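The amplified part of the K562 genome gave different counts on its 3 chromosomes. In the 310 windows on chromosome 13 with H2AX at least 3 times its mean, median levels were 3.87 and 4.34 at 1 h and 4.18 and 4.48 in H2AX, and 0.968% were higher and 13.9% lower. In the 396 such windows on chromosome 22 the medians were 3.86 and 2.92 at 1 h and 6.63 and 6.20 in H2AX, with 26.5% higher and 58.3% lower. In the 75 on chromosome 9 they were 5.47 and 7.19 at 1 h and 9.54 and 8.29 in H2AX, with 33.3% higher and 34.7% lower. Of all windows, 17.9% were higher and 34.2% lower. The shares over the whole of each chromosome were 13.5% and 26.9% on 13, 25.3% and 43.3% on 22, and 18.7% and 35.5% on 9. The amplified windows were chosen by their H2AX level, which is also the divisor of the ratio, so noise in H2AX enters both. Differences between these chromosomes were not tested.

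Shared broad-peak regions were densest on chromosomes 1, 15 and 17, at 18.0, 17.3 and 16.5 per Mb of analysed bins, and sparsest on chromosomes 14, 13 and X, at 3.36, 1.44 and 0.748 per Mb. Mean H2AX levels were 1.32 and 1.30 on chromosome 1 and 0.606 and 0.619 on chromosome X. The part of coverage in peak density was not tested.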
